A study of Mus musculus with 8 samples.

Results

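The 7 genes described here encode subunits of the GABA-A receptor and were chosen by symbol: the alpha subunits Gabra2, Gabra3 and Gabra6, the beta subunits Gabrb1 and Gabrb2, the gamma subunit Gabrg1 and the delta subunit Gabrd. They are 7 of the 19 GABA-A receptor subunit genes among the 32285 features counted. Their levels were taken from single-nucleus RNA sequencing (snRNA-seq) of the paraflocculus and flocculus (PF/F), lateral lobules of the cerebellum, at postnatal day (P) 5.5. The study asked what loss of 1 copy of Tbx1 does to the PF/F and to the petrous temporal bone (PTB) around it, and the tested comparison is Tbx1+/- against WT littermates. Each genotype had 2 PF/F libraries, and each library pooled 5 mice. The study's methods give a C57BL/6J background for its Tbx1 line, the heterozygous loss is carried without a Cre driver, and the sex makeup of each pool is not given in the sources used here. The methods give 2 batches of animals of each genotype, and the replicate number in the labels was read as the batch.

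GABA-A receptors are chloride channels opened by GABA, built from a ring of subunits. Most hold alpha and beta subunits, between which GABA binds, together with a gamma or a delta subunit. Receptors with a gamma subunit can lie at synapses, whereas delta-containing receptors lie mostly outside synapses and carry a steady, tonic current. In the mature cerebellum the alpha6 subunit is a hallmark of granule neurons, where it also pairs with delta, while alpha2 and alpha3 are known for their early and often transient use in developing neurons. Bergmann glia, the radial astrocytes of the cerebellar cortex, also carry GABA-A receptors. In young neurons a high internal chloride level, set by the importer Slc12a2 against the exporter Slc12a5, makes GABA depolarizing.

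Raw counts of unique molecular identifiers (UMIs) were summed per library over the nuclei of each cell type of the deposited annotation, and levels are given as CPM, each count divided by the summed UMIs of its type and library and multiplied by 1000000. The 4 PF/F libraries held 9153 to 13835 annotated nuclei each, 48237 in all, with a median of 2610 to 3503 UMIs per nucleus, and any 2 of them shared 30 to 60 barcodes. Tbx1 itself had 4 and 10 UMIs in the WT and 11 and 13 in the Tbx1+/- PF/F libraries, too few to check the genotype labels. The counts include introns and are not corrected for free RNA, so a low level in a type can be RNA from other cells. Immune nuclei, 385 in all, were taken as a background in which neuronal subunits should be absent, beside larger types where Immune counts were few. For Gabra2 and Gabrb1, Purkinje cells were below Immune nuclei in each library, so the Immune level is no floor for these genes. Of the 14 annotated types described, 10 had at least 50 nuclei in each library and were ranked by level. The other 4 were not ranked. GABA.interneuron and Progenitors are given beside the ranked types where they stood out, and Endothelial and Pericyte, with 183 and 74 nuclei in all, only in the plot of mean levels. Because the types were made by clustering on the same counts, a difference between types is a description and was not tested.

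The labels were checked against marker genes. GNPs (granule neuron progenitors), Purkinje cells, astroglia, the oligodendrocyte lineage, Diff.GABA.interneuron and Immune nuclei had their markers, such as Mki67 at 252 CPM in GNPs, Car8 at 2230 CPM in Purkinje cells and Tnc at 2150 CPM in Astroglia. In Diff.Granule Neuron nuclei 5 granule neuron markers summed to 2863 CPM, against 2135 in GNPs, and 5 GNP markers to 177, against 1211. In GABA.interneuron.progenitor nuclei 5 GABA interneuron markers summed to 1099 CPM, against 1434 in Diff.GABA.interneuron nuclei. The GABA.interneuron.progenitor nuclei also held a summed 1690 CPM of astroglial and 665 CPM of GNP markers. The GNP list includes Mki67 and Top2a, genes of dividing cells, so its sum does not set granule identity apart from division. The astroglial sum was near that of Meningeal (1784 CPM) and RL.early nuclei (1700 CPM), against 6286 CPM in Astroglia. The nuclei labelled Progenitors, 152 in all, went against their label. Their Mki67 and Top2a, genes of dividing cells, were at 21.2 and 27.9 CPM, below GNPs at 252 and 728 CPM, and their leading genes were Ntng1, Tafa1, Meis2 and Gabra2 itself. They are called by their label here, with this limit. RL.early nuclei were led by genes of motile cilia, Dnah12 at 1808 CPM and Spag16 at 2483 CPM, which puts this label in doubt too, and it is kept only as a name.

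The 7 genes lie on 4 chromosomes (mm10/GRCm38, GENCODE vM21). Gabrg1 (chr5:70751047-70842617), Gabra2 (chr5:70957597-71095849) and Gabrb1 (chr5:71658113-72149037) form a cluster with Gabra4 (chr5:71569749-71658308), in which Gabra4 and Gabrb1 are transcribed away from each other and overlap by 196 bases at their starts. The antisense gene Gm38562 overlaps Gabrb1 by 19557 bases on the other strand. Gabra6 (chr11:42306437-42321072) and Gabrb2 (chr11:42419757-42629028) stand 98.7 kb apart. Gabra3 (chrX:72432681-72656848) is X-linked, and Gabrd (chr4:155384980-155398112) stands alone. The spans run from 13.1 kb for Gabrd and 14.6 kb for Gabra6 to 491 kb for Gabrb1, and intron counting gives long genes more UMIs, so genes were compared with each other only per kb of span.

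The RefSeq promoter table (GRCm38.p6) held 6 of the 7 genes, all but Gabrd. The 250 bases before a transcript start are shown for 4 of them whose windows overlap no annotated exon. Gabra6 and Gabrb2 were chosen because they are neighbours on chromosome 11, and Gabra2 and Gabrg1 because they are neighbours on chromosome 5 with different patterns. The windows are chr11:42321073-42321322 (minus strand) for Gabra6, chr11:42420190-42420439 (plus strand, the first of 3 listed starts) for Gabrb2, chr5:71095850-71096099 (minus strand) for Gabra2 and chr5:70842618-70842867 (minus strand) for Gabrg1. Capitals mark CG dinucleotides, which read the same on both strands.
Gabra6: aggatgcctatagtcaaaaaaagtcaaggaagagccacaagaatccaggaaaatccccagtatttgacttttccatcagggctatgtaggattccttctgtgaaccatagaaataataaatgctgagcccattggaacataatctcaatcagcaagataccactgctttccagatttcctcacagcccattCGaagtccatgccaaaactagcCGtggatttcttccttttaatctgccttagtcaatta
Gabrb2: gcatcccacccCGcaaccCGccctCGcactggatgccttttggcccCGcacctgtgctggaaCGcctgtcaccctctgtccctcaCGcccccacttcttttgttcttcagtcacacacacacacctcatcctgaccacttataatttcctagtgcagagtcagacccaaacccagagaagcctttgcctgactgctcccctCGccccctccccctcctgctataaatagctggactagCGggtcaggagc
Gabra2: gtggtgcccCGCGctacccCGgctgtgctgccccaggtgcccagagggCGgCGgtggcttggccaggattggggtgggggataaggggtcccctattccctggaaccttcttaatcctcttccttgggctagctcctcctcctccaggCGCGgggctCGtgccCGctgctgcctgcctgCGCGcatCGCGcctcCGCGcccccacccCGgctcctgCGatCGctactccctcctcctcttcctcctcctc
Gabrg1: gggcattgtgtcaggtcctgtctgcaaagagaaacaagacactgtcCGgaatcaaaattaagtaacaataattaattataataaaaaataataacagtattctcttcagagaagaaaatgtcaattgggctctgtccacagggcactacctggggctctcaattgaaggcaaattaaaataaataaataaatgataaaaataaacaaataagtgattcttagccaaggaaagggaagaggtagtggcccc
The Gabra2 window held 18 CG dinucleotides and was 70% G or C, a count reached or passed by 21.7% of the 32851 promoter windows in the table. The Gabrb2 window held 8, a count that 43% of windows reach. The Gabra6 window held 2 and the Gabrg1 window 1, against a median of 6 over all windows, and 29% and 18.8% of windows held no more than that. These are descriptions of the sequence near each start, and no binding or methylation was measured.

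**Figure D1:**
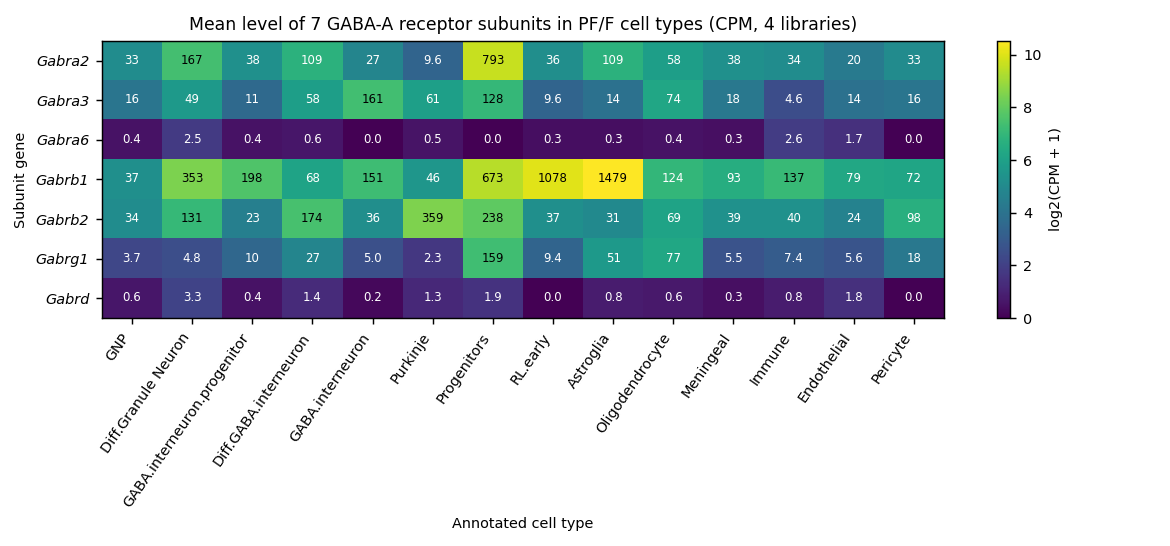
Mean level over the 4 PF/F libraries of the 7 subunits (rows) in 14 annotated cell types (columns), as numbers in CPM and as color on a log2(CPM + 1) scale. Gabrb1 reaches 1479 CPM in Astroglia, Gabrb2 359 CPM in Purkinje cells, and Gabra2 793 CPM in the nuclei labelled Progenitors. Gabra6 and Gabrd stay below 4 CPM in the types shown. Levels are not scaled by gene span here, so they compare types within a row and not the genes with each other.

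Over all annotated PF/F nuclei the beta subunit Gabrb1 was at 411 ± 33.2 CPM (SD, n = 4), Gabrb2 at 109 ± 17.2, Gabra2 at 107 ± 12.4, Gabra3 at 39.6 ± 7.83, Gabrg1 at 17.8 ± 2.23, Gabrd at 1.71 ± 0.355 and Gabra6 at 1.66 ± 0.227. Per kb of gene span, Gabrb1 (0.837 CPM per kb) and Gabra2 (0.771) were close, Gabrb2 followed at 0.522, and Gabrg1 (0.194), Gabra3 (0.177), Gabrd (0.130) and Gabra6 (0.114) were lower. On the same scale Gabra4, the gene of the alpha4 subunit, was at 0.407, Gabrg3 at 0.119 and Gabra5 at 0.0426. The adult granule neuron subunits alpha6 and delta were the lowest of the 7 at this age.

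Gabra2 encodes the alpha2 subunit. Among the 10 ranked types it was highest in Diff.Granule Neuron nuclei, at 155 and 183 CPM in the WT libraries and 148 and 184 CPM in the Tbx1+/- libraries (167 ± 18.5). Astroglia (109 ± 10.3) and Diff.GABA.interneuron nuclei (109 ± 13.7) came next, each below Diff.Granule Neuron nuclei in all 4 libraries, and did not differ from each other beyond their spread. All libraries put each of these 3 types above Oligodendrocyte nuclei (58.5 ± 7.88). Purkinje cells were lowest at 9.58 CPM, below every other ranked type in each library, Immune nuclei (34.0 ± 17.4) included. Diff.Granule Neuron nuclei held 56.3% of all Gabra2 UMIs and 35.9% of all UMIs. The nuclei labelled Progenitors stood far above, at 583 and 861 CPM in WT and 905 and 824 CPM in Tbx1+/- libraries. They made up 0.740% of the UMIs and carried 5.5% of those of Gabra2, but Gabra2 is among the genes that lead that cluster.

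Gabra3, the X-linked alpha3 subunit gene, was spread more evenly. Oligodendrocyte nuclei held 63.1 and 71.8 CPM in WT and 81.5 and 80.8 CPM in Tbx1+/- libraries (74.3 ± 8.69), and they were above Purkinje cells (60.6 ± 6.78) in each library, although the ranges of the 2 types met. Purkinje cells and Diff.GABA.interneuron nuclei (58.5 ± 9.61) did not keep their order over the 4 libraries. Diff.Granule Neuron nuclei followed at 49.3 ± 7.05 CPM and GNPs at 15.8 ± 3.64 CPM, and Immune nuclei were lowest at 4.60 CPM. The small GABA.interneuron type, with 49 to 177 nuclei per library, was higher than all of these at 158, 193, 120 and 172 CPM (161 ± 30.8), and these nuclei had Gad2, a GABA-synthesizing enzyme, at 297 CPM but Pax2, a marker of young interneurons, at only 10.6 CPM. Those labelled Progenitors, at 98.9 to 152 CPM (128 ± 27.6), were also above Oligodendrocyte nuclei in each library.

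Gabra6, which encodes the alpha6 subunit of mature granule neurons, had few counts. Only 289 UMIs were counted in 174303641, and 156 of them (54.0%) fell in Diff.Granule Neuron nuclei. The level there was 1.88 and 2.65 CPM in WT and 3.07 and 2.38 CPM in Tbx1+/- libraries (2.50 ± 0.500), above Diff.GABA.interneuron nuclei (0.565 CPM) in each library. The 156 UMIs gave a pooled 2.50 CPM (95% Poisson interval 2.12 to 2.92). Astroglia, with 8 UMIs, had a pooled 0.299 CPM (0.129 to 0.590) and GNPs, with 12, 0.446 CPM (0.231 to 0.780), and both intervals lie below that of Diff.Granule Neuron nuclei. Immune nuclei had a pooled 2.34 CPM on only 3 UMIs (0.482 to 6.83), an interval too wide to set against it. Of Diff.Granule Neuron nuclei 0.751% held a Gabra6 UMI, of Immune nuclei 0.859%, at medians of 2572 to 3483 and 2474 to 2840.5 UMIs per nucleus across libraries. With each nucleus thinned to 1000 UMIs the shares were 0.228% ± 0.0416 and 0.148% ± 0.140, beside 0.0206% ± 0.0105 in Astroglia. In GABA.interneuron nuclei and those labelled Progenitors 0 Gabra6 UMIs were counted, and 3 counts would be 1.00 and 2.32 CPM there. All intervals here cover counting error only.

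Gabrb1 encodes the beta1 subunit, and Astroglia ranked first for it. In Astroglia it was at 1277 and 1655 CPM in WT and 1344 and 1638 CPM in Tbx1+/- libraries (1479 ± 196), and 89.8% of these nuclei held at least 1 UMI. RL.early nuclei, the ones led by cilia genes, came next with 1078 ± 25.1 CPM, below Astroglia in all 4 libraries, and their astroglial genes Slc1a3 and Tnc were at 533 and 305 CPM against 2318 and 2150 CPM in Astroglia. Diff.Granule Neuron (353 ± 48.0) and GABA.interneuron.progenitor nuclei (198 ± 43.4) followed among the ranked types in the same order in each library. The nuclei labelled Progenitors, at 600 and 799 CPM in WT and 639 and 654 CPM in Tbx1+/- libraries (673 ± 87.0), lay between RL.early and Diff.Granule Neuron nuclei in each library. Immune nuclei had a wide 58.3 to 256 CPM of Gabrb1 beside 188 CPM of the astroglial gene Slc1a3. Purkinje cells (45.9) and GNPs (37.1) were below them in each library, and Diff.GABA.interneuron nuclei (67.9) in 3 of 4, being at 67.4 against 58.3 CPM in Tbx1+/- replicate 1. The thinned share of nuclei with a UMI was 2.97% in GNPs, 3.32% in Purkinje cells, 4.37% in Diff.GABA.interneuron and 4.36% in Immune nuclei. Astroglia held 54.5% of all Gabrb1 UMIs from 15.3% of the UMIs of all genes.

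Gabrb2, the gene of the beta2 subunit, was at 301 and 399 CPM in WT and 343 and 392 CPM in Tbx1+/- libraries in Purkinje cells (359 ± 45.8), the output neurons of the cerebellar cortex. Diff.GABA.interneuron nuclei had 174 ± 24.8 CPM and Diff.Granule Neuron nuclei 131 ± 11.5 CPM. The 3 types kept this order in each library, with no overlap between neighbours, and all were above Oligodendrocyte nuclei (68.9). The nuclei labelled Progenitors, not ranked, had 194 and 235 CPM in WT and 297 and 225 CPM in Tbx1+/- libraries (238 ± 42.9), between Purkinje cells and Diff.GABA.interneuron nuclei in each library. Of Purkinje nuclei, which are deep at a median of 5653 to 8533 UMIs, 85.3% held a Gabrb2 UMI, and thinned to 1000 UMIs the share was 28.8% ± 2.79, beside 1.81% in Immune nuclei. Immune nuclei had 27.2 and 15.5 CPM in WT and 31.4 and 84.8 CPM in Tbx1+/- libraries, a mean of 39.7 CPM, or 24.7 without Tbx1+/- replicate 2. Astroglia (31.1) and GABA.interneuron.progenitor nuclei (22.6) lay within this range and were not ordered alike against Immune nuclei in the 4 libraries. Gabrb1 and Gabrb2 therefore had opposite places in Astroglia and Purkinje cells. Of the 10 ranked types, Astroglia had rank 1 for Gabrb1 and rank 9 for Gabrb2, and Purkinje cells rank 9 for Gabrb1 and rank 1 for Gabrb2.

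Gabrg1, which encodes the gamma1 subunit, was highest in glial types and in Diff.GABA.interneuron nuclei among the ranked types. Oligodendrocyte nuclei had 68.8 and 93.0 CPM in WT and 63.7 and 82.3 CPM in Tbx1+/- libraries (77.0 ± 13.3), Astroglia 51.2 ± 2.11 CPM and Diff.GABA.interneuron nuclei 26.8 ± 3.34 CPM, in this order in each library and with no overlap between neighbours. Diff.Granule Neuron nuclei (4.82), GNPs (3.74) and Purkinje cells (2.25) were below the 7.38 CPM of Immune nuclei, which rests on 10 UMIs and was 0 in WT replicate 2, where all 3 types were above it. The small GABA.interneuron type was at 4.97 ± 3.75 CPM on 20 UMIs. Together, Oligodendrocyte and Astroglia nuclei carried 16% and 43.6% of the Gabrg1 UMIs. The nuclei labelled Progenitors were again above, at 159 ± 53.7 CPM, with WT replicate 2 at 84.3 CPM and the other libraries at 160 to 209 CPM.

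Gabrd encodes the delta subunit of extrasynaptic receptors, and 296 of its UMIs were counted, 205 of them (69.3%) in Diff.Granule Neuron nuclei. The level there was 4.11 and 3.36 CPM in WT and 2.75 and 3.02 CPM in Tbx1+/- libraries (3.31 ± 0.589), higher than in Diff.GABA.interneuron nuclei (1.44 ± 0.959) in all 4. RL.early nuclei had 0, and 3 counts, taken as the limit that a count of 0 allows, would be 1.21 CPM there. The share of nuclei with a Gabrd UMI was 1.04% in Diff.Granule Neuron and 0.243% in Immune nuclei, at medians of 2572 to 3483 and 2474 to 2840.5 UMIs. With each nucleus thinned to 1000 UMIs it was 0.258% to 0.381% over libraries in Diff.Granule Neuron and 0% to 0.236% in Immune nuclei. Pooled over libraries, Diff.Granule Neuron nuclei had 3.28 CPM (2.85 to 3.76), above Astroglia with 0.786 CPM (0.486 to 1.20) and GNPs with 0.558 CPM (0.312 to 0.920), whereas the 0.779 CPM of Immune nuclei rests on 1 UMI (0.0197 to 4.34). Of Gabrd, 1 UMI was counted in the nuclei labelled Progenitors and 1 in GABA.interneuron nuclei.

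**Figure D2:**
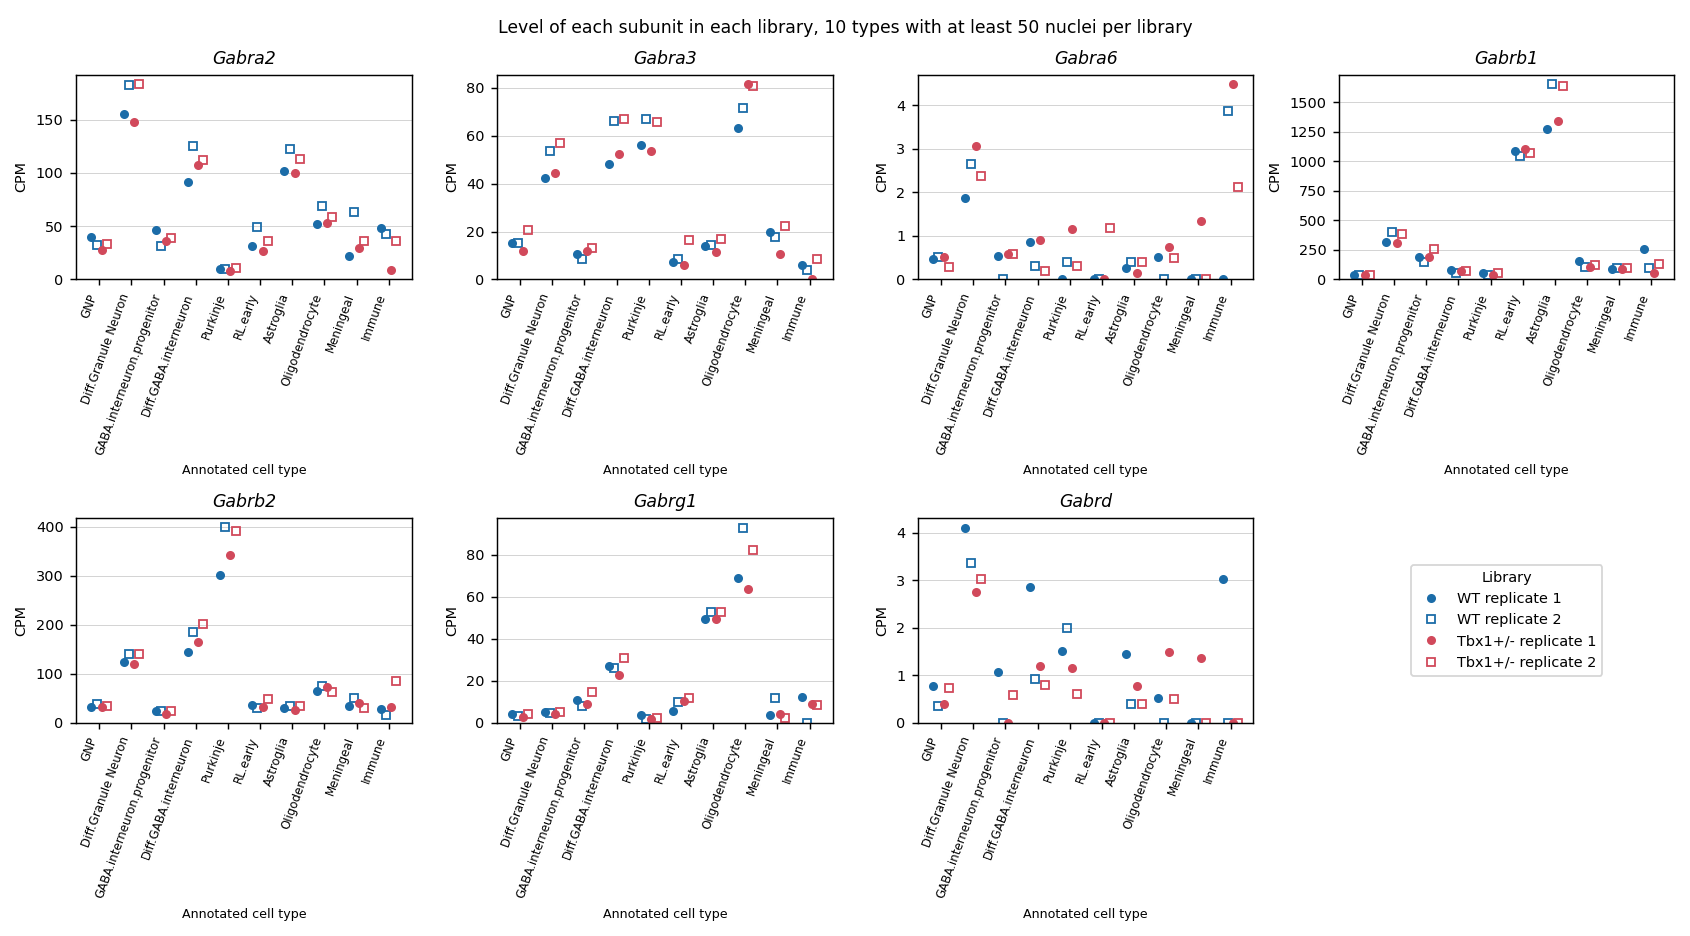
Level in CPM (vertical axes, each from 0) of each subunit in 10 annotated types with at least 50 nuclei per library (horizontal axes). Filled circles are replicate 1 and open squares replicate 2, in blue for WT and red for Tbx1+/-, and for Gabrb1 in Astroglia the replicate 2 libraries (1655 and 1638 CPM) lie above the replicate 1 libraries (1277 and 1344 CPM) in both genotypes.

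Next, levels were compared between GNPs and Diff.Granule Neuron nuclei, the dividing and the differentiating type of the granule lineage. All 7 members were higher in Diff.Granule Neuron nuclei in each of the 4 libraries, where 22.3% of the 21926 features with a UMI in either type in every library were and 46.6% were lower. The ratio was 9.48 for Gabrb1 (7.86 to 11.6 over libraries), 6.25 for Gabrd (4.13 to 9.82), 5.64 for Gabra6 (4.03 to 8.15), 5.03 for Gabra2 (3.93 to 5.59), 3.86 for Gabrb2 (3.59 to 4.24) and 3.15 for Gabra3 (2.75 to 3.71). Gabrg1 had the smallest step, 1.31 (1.16 to 1.47). In GNPs Gabrd had 15 UMIs (5, 2, 3 and 5 over libraries) and Gabra6 had 12 (3, 3, 4 and 2), so their ratios rest on few counts. Over libraries the mean level in GNPs was below that in Immune nuclei for each member except Gabra3 (15.8 against 4.60 CPM). Those below included Gabra2 (33.4 against 34.0), Gabrb2 (33.9 against 39.7) and Gabrb1 (37.1 against 137 CPM). For Gabrb2 this rests on Tbx1+/- replicate 2 (33.2 in GNPs against 84.8 CPM), without which the Immune mean was 24.7 CPM. The Immune means of Gabra6 and Gabrd rest on 3 and 1 UMIs. The part of free RNA in these ratios was not tested. The median log2 ratio was 2.33 over the members and -0.29 over all genes, and a TMM scaling of the types added 0.30 to each. Among the other subunits Gabrg3 had a ratio of 3.69 (3.23 to 4.33) and Gabra4 of 1.21 (1.13 to 1.35).

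In the GABA interneuron lineage, levels in GABA.interneuron.progenitor nuclei were set against Diff.GABA.interneuron nuclei, which had the glycine transporter gene Slc6a5 at 160 CPM and Gad1 at 807 CPM. Of the 7 members, 5 were higher in Diff.GABA.interneuron nuclei in each of the 4 libraries, and 22.1% of 19033 features were. The ratio was 7.69 for Gabrb2 (5.89 to 9.02), 5.27 for Gabra3 (4.45 to 7.61), 2.85 for Gabra2 (1.98 to 3.95) and 2.62 for Gabrg1 (2.15 to 3.32). Gabrd was the other, on 21 and 3 UMIs. In GABA.interneuron.progenitor nuclei Gabrb2 (22.6 CPM) was below the Immune mean (39.7, or 24.7 without Tbx1+/- replicate 2) and Gabra2 was near it (38.4 against 34.0). Gabra3 (11.1 against 4.60) and Gabrg1 (10.5 against 7.38) were above it. Gabrb1 went the other way in every library, at 0.345 of the progenitor level (0.263 to 0.422), as did 35.6% of features, and its overlapping neighbour Gabra4 was at 0.211 (0.176 to 0.263). The summed level of 5 astroglial markers was also lower, at 412 to 923 CPM over libraries in Diff.GABA.interneuron nuclei against 1351 to 1916 CPM in GABA.interneuron.progenitor nuclei, and its part in the Gabrb1 difference was not tested. Between GNPs and Diff.Granule Neuron nuclei the same sum was 547 to 1188 and 493 to 1033 CPM. Gabrb1 in Diff.GABA.interneuron nuclei (67.9 CPM) was below the Immune mean of 137 CPM. That mean is no floor for Gabrb1, since Purkinje cells (45.9 CPM) and GNPs (37.1 CPM) were lower still. In GABA.interneuron.progenitor nuclei (198) Gabrb1 was above the Immune mean, but in WT replicate 1 it was below Immune nuclei (194 against 256). The part of free RNA in the ratios of this lineage was not tested. Gabra6 had 8 and 3 UMIs and no common direction. Gabrb1 was thus higher in Diff.Granule Neuron nuclei than in GNPs and lower in Diff.GABA.interneuron nuclei than in GABA.interneuron.progenitor nuclei. The small GABA.interneuron type was not part of these ratios and differed from Diff.GABA.interneuron nuclei. Its Gabrb1 (204 and 125 CPM in WT, 85.3 and 192 CPM in Tbx1+/- libraries) and Gabra3 (161 CPM) were higher in each library. Its Gabra2 (27.1 CPM), Gabrb2 (36.0 CPM) and Gabrg1 (4.97 CPM) were lower in each.

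**Figure D3:**
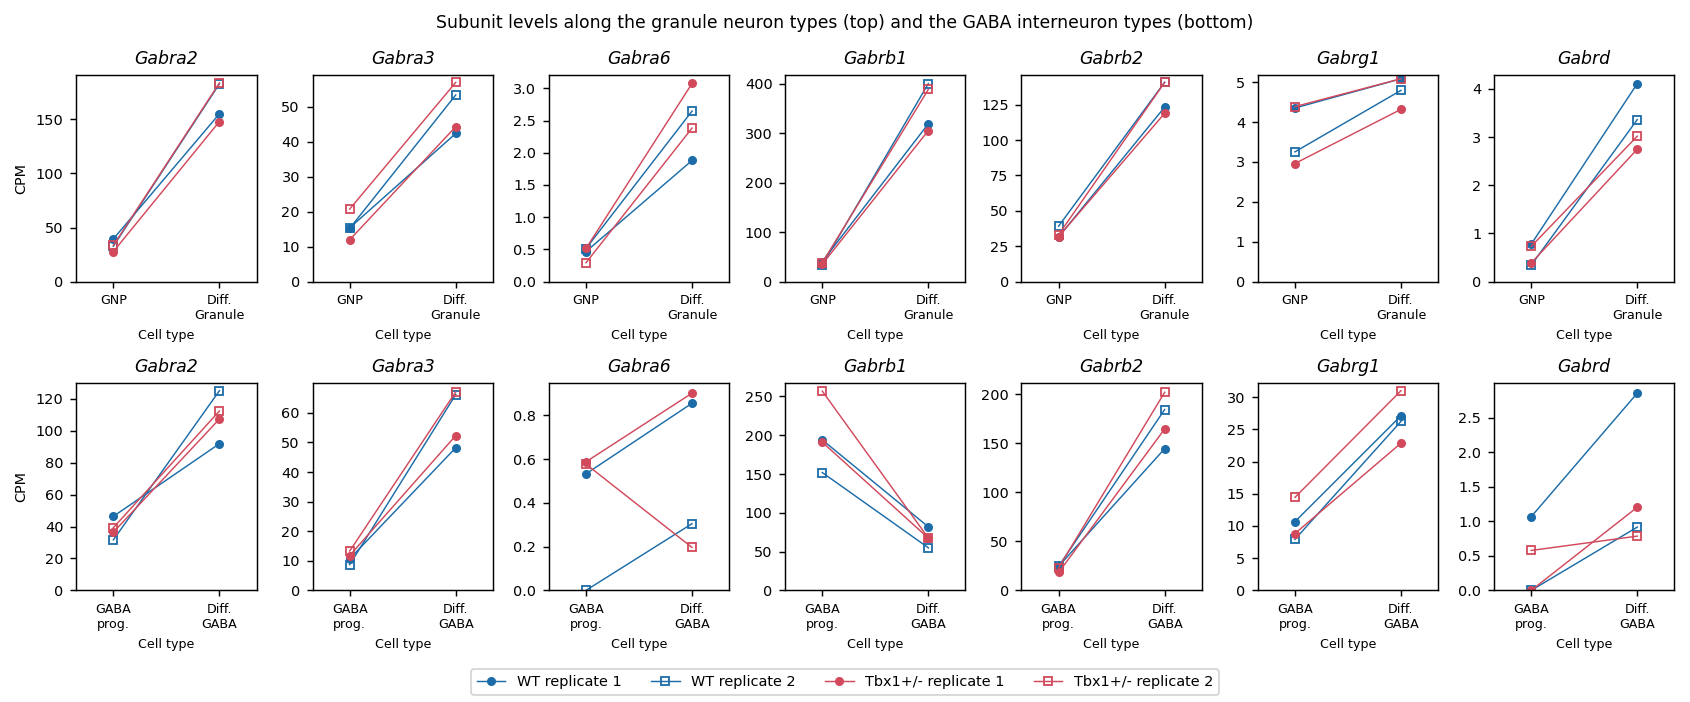
Level in CPM (vertical axes, each from 0) of each subunit in GNP and Diff.Granule Neuron nuclei (top row) and in GABA.interneuron.progenitor (GABA prog.) and Diff.GABA.interneuron (Diff. GABA) nuclei (bottom row). Lines join the types of 1 library and are no measured time course, with replicate 1 as filled circles and replicate 2 as open squares, WT in blue and Tbx1+/- in red. Gabrb1 is higher in Diff.Granule Neuron nuclei than in GNPs and lower in Diff.GABA.interneuron nuclei than in their progenitors in all 4 libraries.

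The pattern of the members over the 10 ranked types was compared with that of other genes by Pearson's r of log2(CPM + 5), a description over types that share libraries, among 12174 genes. Gabrb2 was most like Dner (r = 0.99), a Notch ligand gene of Purkinje cells, followed by Ptprn (0.98) and Gm27032 (0.98), each highest in Purkinje cells among these types. Gabrb1 was most like Frem2 (0.95), Raver2 (0.89) and Slc4a4 (0.88), a bicarbonate transporter of astroglia. Its neighbour Gabra4 had r = 0.87 (0.81 to 0.89 within single libraries). Whether the counting used strand is not stated in the sources used here, so reads of Gabrb1, Gabra4 and Gm38562, which overlap, may not be fully apart. Gabra4 was at 119 ± 21.2 CPM in Astroglia, 63.9 ± 12.7 in RL.early and 40.3 ± 8.11 in GABA.interneuron.progenitor nuclei, its 3 highest ranked types, which had ranks 1, 2 and 4 for Gabrb1.

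The other nearest genes were Rgs17 (0.94), Kirrel3 (0.92) and 4930415C11Rik (0.91) for Gabra2, Dtd1 (0.96), Atp9a (0.95) and Gm28750 (0.94) for Gabra3, and Cdh6 (0.92), Sema6d (0.91) and Tox (0.91) for Gabrg1. For Gabra6 they were Pkib (0.98), Tecpr1 (0.92) and Kcnk12 (0.90), and for Gabrd Stxbp5l (0.97), Samd14 (0.95) and Syt1 (0.94), a calcium sensor of synaptic vesicles, these 3 highest in Diff.Granule Neuron nuclei among these types. For the 2 sparse members r rests on very few UMIs. Neighbours in the genome did not all share a pattern: r was 0.49 for Gabrg1 with Gabra2, 0.37 for Gabra2 with Gabra4 and 0.14 for Gabra6 with Gabrb2.

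**Figure D4:**
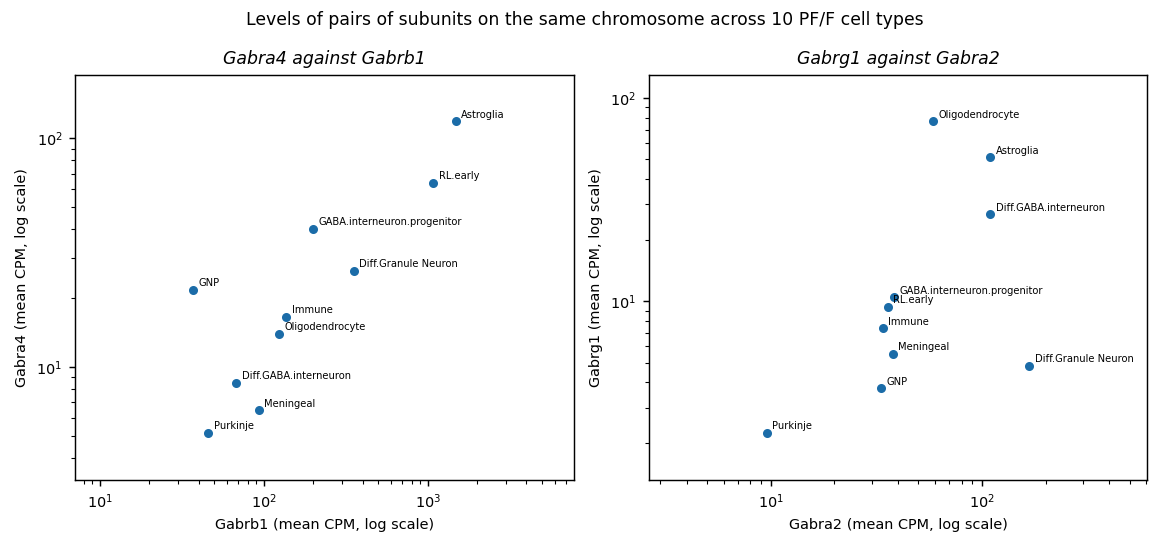
Mean CPM over 4 libraries of 2 subunits against each other in the 10 ranked cell types, both axes on a log scale, 1 point per type. Gabra4 against Gabrb1 lies along a line (r = 0.87 on the log2(CPM + 5) scale), and Gabrg1 against Gabra2 is scattered (r = 0.49), with Diff.Granule Neuron nuclei high in Gabra2 and low in Gabrg1.

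Finally, Tbx1+/- was compared with WT in 7 types and in all annotated nuclei, with edgeR's quasi-likelihood test over all genes, called at a Benjamini-Hochberg adjusted p under 0.05 and a change over 1.5-fold. No member was called in any of the 8 fits. The members that passed the filter on low counts numbered 5 in GNPs, 7 in Diff.Granule Neuron, 5 in Diff.GABA.interneuron, 5 in GABA.interneuron.progenitor, 4 in Purkinje, 5 in Astroglia, 5 in Oligodendrocyte and 7 in all nuclei. Over all genes, 0% were called in each of the 8 fits but Purkinje cells, where 1 of 12851 (0.00778%) was, Ttr, which is no GABA-A subunit gene and was named after its value was seen, as the only call. With 2 libraries a group, an exact permutation test cannot give a p below 0.33.

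The fitted changes of the members were all under 1.5-fold. In GNPs the log2 change (Tbx1+/- minus WT) ran from -0.22 for Gabra2 to 0.11 for Gabra3, in Diff.Granule Neuron nuclei from -0.35 for Gabrd to 0.28 for Gabra6, and in Astroglia from -0.11 for Gabrb2 to 0.04 for Gabrb1. It ran from -0.0038 for Gabrb1 to 0.17 for Gabrb2 in Diff.GABA.interneuron nuclei and from -0.06 for Gabra2 to 0.09 for Gabrb2 in Purkinje cells. In GABA.interneuron.progenitor nuclei it ran from -0.24 for Gabrb2 to 0.37 for Gabrb1, which was -0.02 within batch 1 and 0.76 within batch 2, and in Oligodendrocyte nuclei from -0.16 for Gabrb1 to 0.29 for Gabra3. Over all annotated nuclei, where the mix of types and the level per nucleus cannot be told apart, the changes were between -0.37 for Gabrd and 0.13 for Gabra6. Standard errors were 0.15 to 0.39 in these fits, which have no term for the batch.

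The levels of the genotypes did not overlap for 1 of 7 tested members in Diff.Granule Neuron, 2 of 5 in GABA.interneuron.progenitor, 1 of 5 in Oligodendrocyte and 1 of 7 in all nuclei, where 20.1%, 25.2%, 24.3% and 17.9% of all tested genes did not. They overlapped for all tested members in GNPs (5), Diff.GABA.interneuron (5), Purkinje (4) and Astroglia (5), where the share over all genes was not computed. Gabrd in Diff.Granule Neuron nuclei was lower in both Tbx1+/- libraries, with a log2 change of -0.35 ± 0.23 (edgeR adjusted p = 1.00), -0.58 within batch 1 and -0.16 within batch 2. Over all nuclei it was at 2.23 and 1.64 CPM in WT and 1.47 and 1.49 CPM in Tbx1+/- libraries (-0.37 ± 0.24, edgeR adjusted p = 1.00). Gabra3 in Oligodendrocyte nuclei was higher in both, at 0.29 ± 0.21 (edgeR adjusted p = 1.00), 0.37 within batch 1 and 0.17 within batch 2. In GABA.interneuron.progenitor nuclei Gabra3 was higher in both, at 10.7 and 8.70 CPM in WT and 11.8 and 13.3 CPM in Tbx1+/- libraries (0.35 ± 0.34, edgeR adjusted p = 1.00), and Gabrb2 lower in both, at 24.5 in each WT library and 18.2 and 23.1 CPM in Tbx1+/- libraries (-0.24 ± 0.26, edgeR adjusted p = 1.00). None of these differences was called, and the fits behind these adjusted p-values have no term for the batch.

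A fit with the replicate number as a block, for the 2 batches, called no member either. It called 3 genes in GNPs, 3 in Diff.GABA.interneuron, 1 in GABA.interneuron.progenitor, 3 in Purkinje, 3 in Astroglia and 2 in Oligodendrocyte nuclei and 0 in the other 2 fits. Without the block, which leaves the batch difference in the spread, 99 to 190 genes a fit had an unadjusted p under 0.05, none of them a member. The lowest count was 99 of 20756 in all nuclei and the highest 190 of 12363 in GABA.interneuron.progenitor nuclei. With the block, 519 to 695 genes a fit did (519 of 12363 in GABA.interneuron.progenitor nuclei, 695 of 15361 in GNPs). Among them was 1 member value, Gabrb1 in GABA.interneuron.progenitor nuclei, with a log2 change of 0.36 ± 0.15 and an edgeR adjusted p of 0.998. The standard error of Gabrb1 in Diff.Granule Neuron nuclei was 0.22 without and 0.056 with the block. That of Gabra3 in GABA.interneuron.progenitor nuclei was 0.34 and 0.36. DESeq2 called 1 gene in Purkinje, 1 in Astroglia and 0 in the other 6 fits, with 4 to 31 genes at an unadjusted p under 0.05.

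**Figure D5:**
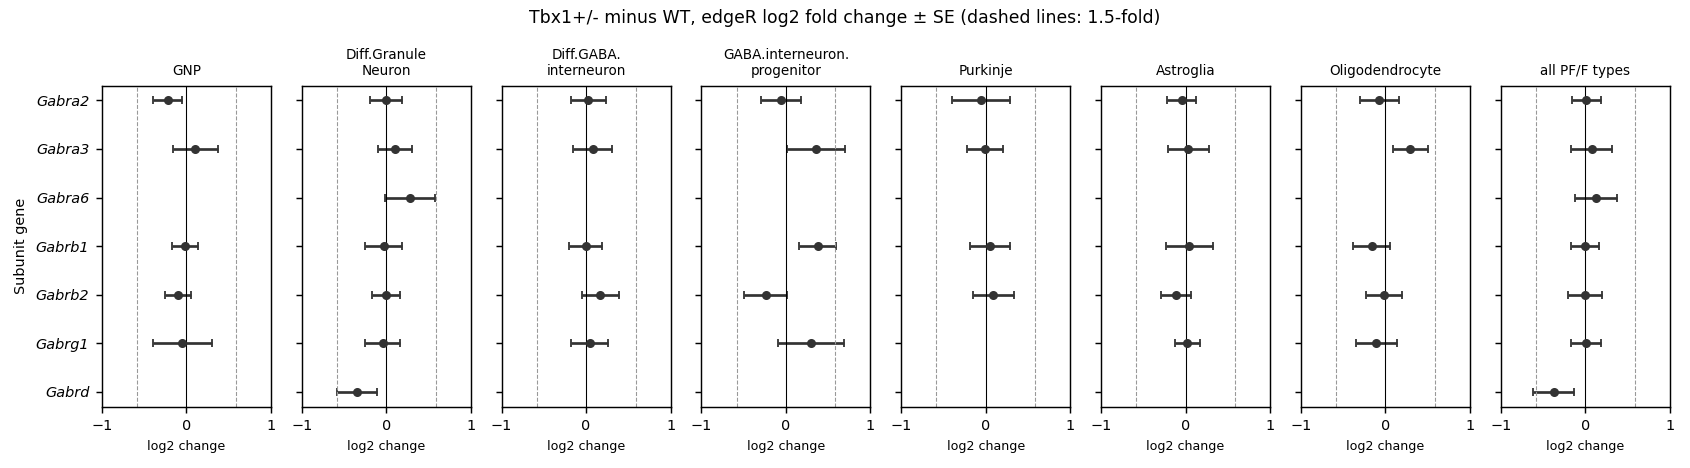
Log2 fold change of Tbx1+/- against WT (horizontal axes) with its standard error (bars) from edgeR for each subunit that passed the filter on low counts (rows) in 7 cell types and in all annotated PF/F nuclei (panels), with dashed lines at a 1.5-fold change. All points lie within the dashed lines, between -0.37 for Gabrd in all nuclei and 0.37 for Gabrb1 in GABA.interneuron.progenitor nuclei.

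Further genes of the pathway were taken from 5 lists with 31 members: other GABA-A subunits (9), GABA synthesis and transport (6), anchoring, assembly and trafficking (9), chloride transporters (2) and GABA-B receptor genes (5). Of those tested in each of the 8 fits, 0 was called higher and 0 lower. From the other subunits, 2 to 4 of 9 passed the filter on low counts in a cell type and 6 in all nuclei. Over all lists and fits the median log2 change of a list ran from -0.39 for the 3 tested other subunits in GNPs to 0.36 for the 2 chloride transporters in GABA.interneuron.progenitor nuclei, against -0.0083 to 0.0029 over all genes. These 3 subunits ran from -0.60 to -0.14 and these 2 transporters from 0.18 to 0.53, and medians of so few genes were not tested.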

How the data were processed

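The authors isolated nuclei from PF/F and PTB of WT and Tbx1+/- pups, made droplet libraries from pools of 5 mice, and deposited raw UMI counts per gene and nucleus with an annotation of cell types. Per the labels and methods, reads were processed with Cell Ranger 7.0.0 on mm10 with introns counted, and the annotation was made after a correction for free RNA (SoupX) that the deposited counts do not hold. Strand use is not given in the sources used here.

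Counts were summed per library and annotated type. CPM, ratios and shares of nuclei with a UMI were computed from these sums, the shares also after thinning each nucleus to 1000 UMIs. Between genotypes, edgeR 4.0.16 (TMM, filterByExpr, quasi-likelihood test) with Benjamini-Hochberg adjustment was run per type over all genes, with limma 3.58.1, DESeq2 1.42.0 and R 4.3.3, and the remaining steps in Python 3.11.15. The fits were also run on simulated counts that held no batch difference and changes larger than any fitted for the members. That run does not show how well small changes would be found here. Alternatives were DESeq2 size factors, no filter, DESeq2, a replicate block, nuclei with at least 2000 genes, no nuclei of the top 8% of UMIs per library (for doublets, which were not called here), and each library left out in turn. Levels were also scaled by TMM over the 16 types. The methods name 2 batches of animals per genotype, the replicate number was read as the batch, and same-numbered libraries deviated together (r = 0.55 over 20756 genes). Each library is a separate pool, so p-values measure the spread between pools, which holds the batch difference where no block was fitted. Intervals cover counting error only.

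The members and lists were chosen with earlier results of these data known. Named were all 7 members, other subunits, 5 pathway lists, and the 3 genes most like each member over 10 types among 12174 genes with at least 20 CPM in a type. Gene positions were taken from GENCODE vM21, which held 32158 of 32285 features (99.6%), and promoter sequences from RefSeq. Of the 16 annotated types 2, and a few genes, are not reported here. The PTB libraries were used only to set barcodes outside the annotation against annotated PTB nuclei.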

Additional observations from a re-analysis of the deposited data

Results flagged for a closer look

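Signals were found in barcodes that the deposited annotation leaves out, which no comparison above uses. The study's bone atlas includes neurons and immune cells. The annotated PTB nuclei number 31076, as many as in its map of chondrocytes and osteoblasts alone. The study also removed low-quality nuclei from both tissues. In the PTB libraries, 1688 such barcodes with at least 3 UMIs of neuron markers, the genes by which they were picked, held Gabra2 at a mean of 122.6 CPM, Gabra3 at 41.7, Gabrb1 at 162, Gabrb2 at 103, Gabrg1 at 16.3 and Gabrd at 2.50 CPM (50 UMIs). The annotated PTB nuclei had 2.37, 7.69, 23.1, 21.1, 0.498 and 0.145 CPM of these genes, lower in all 4 libraries in each case. In the PF/F libraries, 9721 barcodes outside the annotation had Gabra2 at 161 CPM, Gabra3 at 56.8, Gabrb2 at 150.3 and Gabrg1 at 26.8 CPM, against 107, 39.6, 109 and 17.8 CPM in annotated nuclei, higher in all 4 libraries. Gabrb1 was lower there (333.3 against 411 CPM). What these barcodes are was not tested.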

How the results depend on the processing

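No member was called under any of 80 alternative fits, and of 429 member values 350 kept the sign of the reported change and 79 did not. Counts of genes called over the whole table moved more. With the replicate block they were 3 in GNPs, 3 in Diff.GABA.interneuron, 1 in GABA.interneuron.progenitor, 3 in Purkinje, 3 in Astroglia and 2 in Oligodendrocyte nuclei, and the block changed no call of a member. With no filter they were 1 in Diff.GABA.interneuron, 3 in Astroglia and 1 in Oligodendrocyte nuclei, with DESeq2 1 in Astroglia, and without the top 8% of nuclei 0 in Purkinje cells. With 1 library left out, where the lone library is assumed to vary like the others, counts were 1 to 2 in GNPs, 0 to 39 in Diff.Granule Neuron, 1 to 10 in Diff.GABA.interneuron, 0 to 21 in GABA.interneuron.progenitor, 1 to 19 in Purkinje, 1 to 38 in Astroglia, 0 to 7 in Oligodendrocyte and 0 to 0 in all nuclei, each highest count above 0 without WT replicate 1. The cause was not tested.

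The Gabrb2 change in Diff.GABA.interneuron nuclei (0.17) ran from -0.035 without WT replicate 1 to 0.41 without WT replicate 2 and was -0.016 without Tbx1+/- replicate 2. In Purkinje cells (0.09) it ran from -0.15 to 0.37, with -0.044 without Tbx1+/- replicate 2, in the same order. In Astroglia (-0.11) it ran from -0.32 without Tbx1+/- replicate 2 to 0.058 without Tbx1+/- replicate 1 and was 0.065 in nuclei with at least 2000 genes. The log2 ratio of Immune over Diff.Granule Neuron nuclei for Gabra6 (0.069), which rests on 3 Immune UMIs, was -1.04 without the top 8% of nuclei, -0.43 with TMM and -0.21 to 0.37 with 1 library left out, below 0 without WT replicate 2 (-0.15) and without Tbx1+/- replicate 1 (-0.21). The counts of 7 and 5 members higher in the differentiating types held under all 7 alternatives each. Gabra6 and Gabrd, with 289 and 296 UMIs, are limited by depth.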

Other observations

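Other subunits and the chloride transporters were measured in the same nuclei. Gabrg3, the gene of the gamma3 subunit, was at 401 ± 115 CPM in RL.early nuclei, which are led by cilia genes, 363 ± 62.2 CPM in the nuclei labelled Progenitors, 256 ± 65.8 CPM in GABA.interneuron and 175 ± 32.8 CPM in Astroglia. Gabra5, the gene of the alpha5 subunit, was at 36.7 to 55.4 CPM over libraries in the nuclei labelled Progenitors, 29.0 ± 10.6 CPM in GABA.interneuron and 13.3 ± 4.03 CPM (SD, n = 4) in Diff.GABA.interneuron nuclei. Slc12a2, the chloride importer, was at 392 CPM in Pericyte, 178 in Immune, 95.5 in GNP and 46.1 CPM in Purkinje nuclei. Slc12a5, the exporter, was at 167 CPM in the nuclei labelled Progenitors, 133 in GABA.interneuron nuclei and 102 in Purkinje cells. These are descriptions without a test.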
